A study of Xenopus tropicalis with 6 samples.

Results

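The 200 genes described here differed most between 3 control samples of *Xenopus tropicalis* embryos. They were chosen by their values in the control samples alone, from 23634 listed genes. A gene had to average at least 5 TPM (a unit scaled to one fixed total per sample) over control samples 1, 2 and 3, which 9170 genes did. The members were the 200 of these with the largest standard deviation (SD) of log2(TPM + 0.5) over those samples. All differences between control samples are therefore a description of the choice and were not tested. Values of the morphant samples were not used by the rule, and they show whether the sample of the same number had the same pattern.

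The study asked what N1-SRC, a neuronal splice form of the tyrosine kinase SRC with a small insertion in its SH3 domain, does in the early embryo. Morphants received 10 ng of splice-blocking morpholinos against *n1-src* (AMO A + D), and their siblings received 10 ng of a standard control morpholino. All embryos were of the Nigerian strain and were collected whole at Stage 16, the middle of neurulation. Poly(A) RNA was sequenced from 3 samples per group, numbered 1 to 3 in each.

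A morphant and a control sample of one number are called a set here. The labels do not say whether the sets were separate matings, days or extractions, so these cannot be told apart. The number of embryos per sample is not given in the sources used here. A control morpholino has no target in the embryo, so controls carry the injection but not the block. Each set has 1 sample per group, and a difference between whole embryos cannot tell more cells of a type from more RNA per cell.

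At neurula stages the embryo holds neural plate, mesoderm, endoderm and a differentiating epidermis together. Clutches of frog embryos can differ in genotype, in the RNA and protein loaded into the egg, and in their exact developmental timing. Genes that respond to wounding or infection and genes encoded in tandem copies can also differ between clutches. Splice variants and near-identical copies are a further matter, since a read that fits several entries of a transcriptome is divided between them.

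Every sample summed to the same TPM total, so the values carry no depth and no counting error could be computed. Between 12710 and 12938 genes reached 1 TPM in morphants and between 12962 and 13126 in controls. Of 32 cell type markers, 28 were in the table and 23 reached 1 TPM in every control sample. The markers *otogl* of secretory cells, *gata1* of red blood cells and *spi1* of myeloid cells were under 1 TPM in every sample. Other markers named for secretory cells and blood were present. Over all samples *itln1* (secretory) had 97.3 to 272 TPM, *mpo* (blood) 26.4 to 104 TPM and *hba1* (blood) 0.524 to 2.86 TPM. The *src* gene as a whole had 15.6, 17.3 and 34.6 TPM in morphants 1, 2 and 3, against 18.7, 25.8 and 49.2 TPM in controls 1, 2 and 3. This gene-level value does not resolve the microexon that the morpholinos block, so it does not check the labels. Sample 3 was the highest of both groups.

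Among the members, the SD of the control values ran between 0.83 and 4.08 on the log2 scale, with a median of 1.101, against a median of 0.22 for the other 8970 genes. Where all 3 control values were above 0, the highest control was a median of 4.54 times the lowest, and at least 2.93 times (192 members). The remaining 8 members had a control listed at 0. The members were moderately expressed, with a median control mean of 14.9 TPM against 22.4 TPM for the other genes. They made up 0.679, 0.93 and 0.888% of all TPM in morphants 1, 2 and 3, against 0.584, 1.35 and 0.82% in controls 1, 2 and 3.

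The threshold fell in a dense part of the ranking. Just inside it, the control SD was 0.84 for *LOC101733139*, 0.84 for *LOC101734319*, 0.84 for *LOC101731448*, 0.83 for *ppp1r1a*, which encodes a protein phosphatase inhibitor, and 0.83 for *sec61b*, a subunit of the channel into the endoplasmic reticulum. Just outside it were *gad1.2*, an enzyme of GABA synthesis, with 0.83, *LOC105946145* with 0.83, *gpnmb* with 0.82, *bmt2* with 0.82 and *angpt4* with 0.82.

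Many members had no gene name. Of the 200, 113 (56.5%) carried only a locus number or similar identifier, against 11.9% of the other genes. RefSeq (assembly UCB_Xtro_10.0) matched 153 members, of which 137 were protein coding, 10 were long noncoding RNAs, 5 were microRNA genes and 1 was a transcribed pseudogene. Long noncoding RNAs were 6.54% of the matched members and 1.51% of the other matched genes. Annotated genes shorter than 1000 bases made up 12.42% of the matched members and 1.06% of the others. Of the matched members, 29 (19.0%) lay within 5 genes of another member, against 5.45% of the other genes. These 29 include 9 and 3 genes from separate stretches of chromosome 8, described below.

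Each member was placed by the control sample farthest from the median of the 3. Control 1 was the odd one for 84 members, low in 71 and high in 13. Control 3 was low in 48 and high in 41. Control 2 was the odd one least often, high in 14 and low in 13. As an order, the sequence control 1, 2, 3 from low to high was the most common, with 68 members (34%), a share also found over all 9170 genes (33.0%). The sequence 1, 3, 2 held 22.5% of the members and 10.2% of all genes.

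In the morphants the pattern of the same-numbered control was largely present. The median Pearson correlation of a member's 3 morphant values with its 3 control values was 0.98, against 0.92 for the other genes. Over only 3 points it is a description, and 154 members (77%) were above 0.9, against 55.2% of all 9170 genes. The sample with the lowest value had the same number in both groups for 176 members (88%), against 71.5% of all genes. The sample with the highest value had the same number for 148 members (74%), close to the 71.8% of all genes. The whole order was the same in 129 members (64.5%), against 53.2%. The odd set and its direction were the same in 148 members (74%), against 53.9%.

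**Figure D1:**
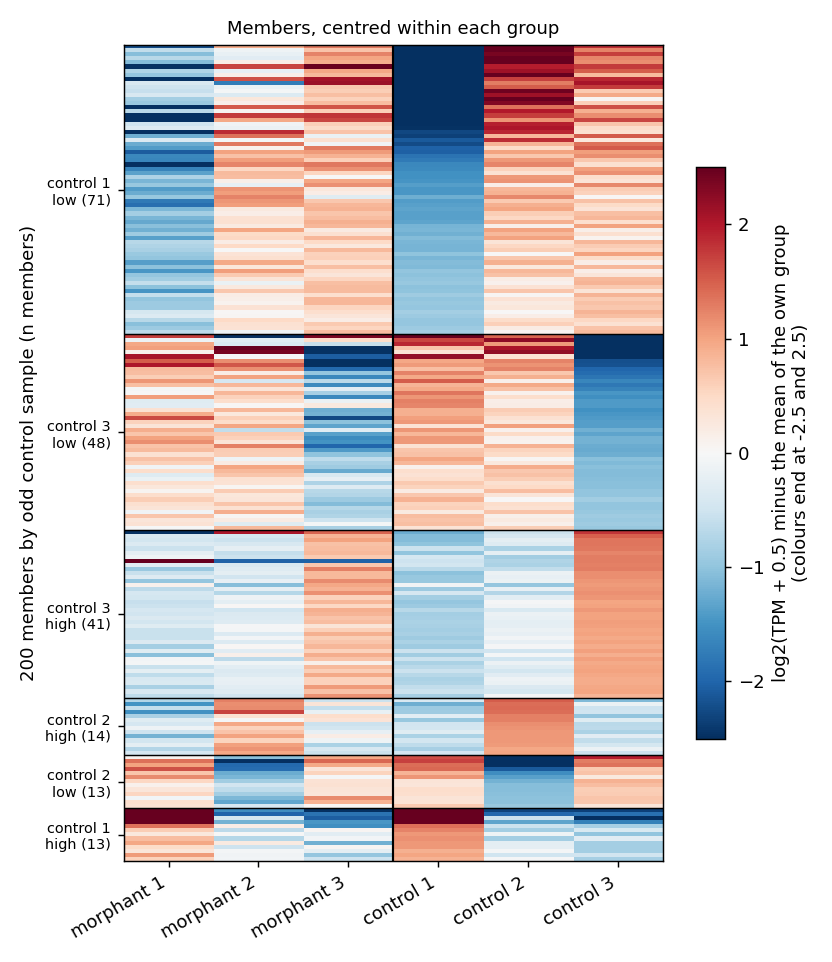
Log2(TPM + 0.5) of the 200 members (rows), centred on the mean of the 3 samples of its own group, in morphants 1 to 3 (left) and controls 1 to 3 (right). Rows are ordered by which control sample was odd and in which direction, which the rule's own values fix on the right side only. The colours on the left repeat those on the right in most blocks, more faintly in the top rows of the block with a low control 1.

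The spread in morphants was also large. The morphant SD had a median of 0.87 over the members and 0.18 over the other genes, and 121 members (60.5%) were among the 200 genes with the largest morphant SD, against 2.18% of all genes. The morphant SD was below the control SD in 148 members. Since the rule took the extremes of the control values, a smaller spread in the other group is built into the choice, and nothing is read from it. The slope of morphant on control values, which is 1 where a difference between sets has the same size in both groups, had a median of 0.75 (0.69 for the other genes). It was between 0.8 and 1.2 in 79 members, between 0.3 and 0.8 in 76, under 0.3 in 31 and over 1.2 in 14.

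Between sets 3 and 1, the difference had the same sign in morphants and controls for 93.5% of the members, against 83.9% of all 9170 genes. It did so for 88.5% between sets 2 and 1, against 76.0% of all genes. Between sets 3 and 2 the share was 78.5%, below the 80.9% of all genes. The median absolute difference between a morphant and the control of its own set was 0.35, 0.43 and 0.63 on the log2 scale in sets 1, 2 and 3. Between control samples it was 1.32 for sets 2 and 1, 1.84 for sets 3 and 1, and 1.29 for sets 3 and 2, as the rule requires them to be large.

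**Figure D2:**
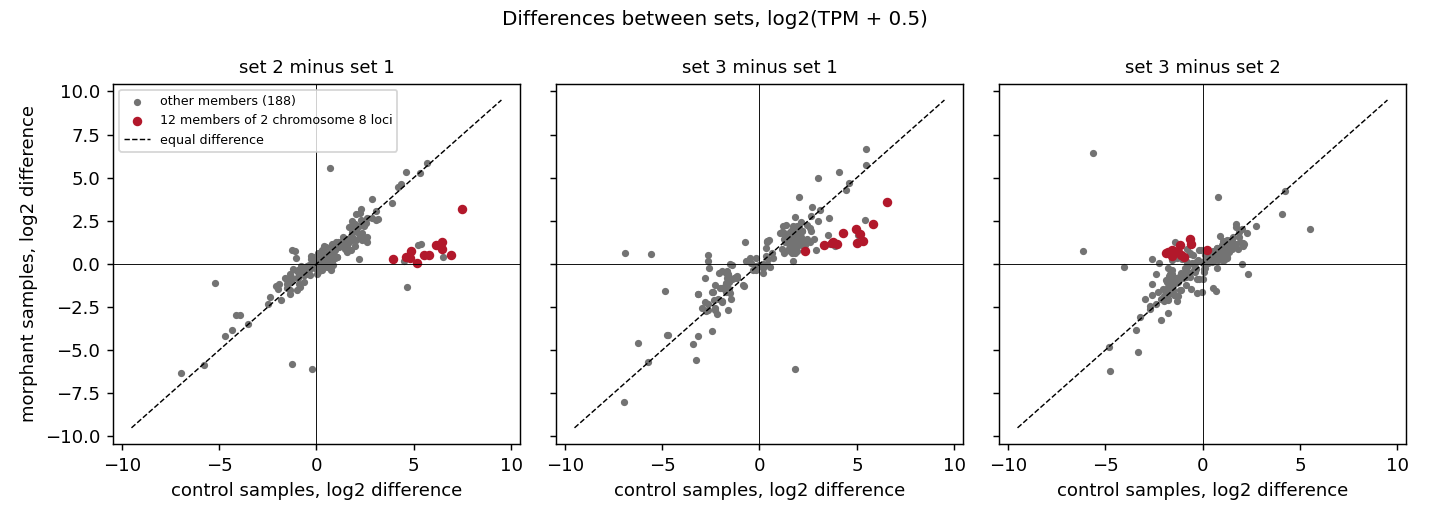
Difference between 2 sets on the log2(TPM + 0.5) scale in the control samples (horizontal) and in the morphant samples (vertical), 1 point per member. Grey points are 188 members, with a median slope of 0.79, and 20 of them had a slope under 0.3. Of all 200 members, 79 had a slope between 0.8 and 1.2, where 1 is the line of equal difference. Red points are 12 members of 2 chromosome 8 loci, which lie well below the line in both differences from set 1.

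Several members were near absent in 1 or 2 sets of both groups. The myosin phosphatase subunit gene *ppp1r12b* had 30.02, 0.0302 and 0.0866 TPM in morphants 1, 2 and 3, against 29.8, 0.0474 and 0.0812 TPM in controls 1, 2 and 3. It was present in set 1 only, at nearly the same level in both groups. The entry *h2afj*, a histone gene matched by synonym to *macroh2a1* in RefSeq, was listed at 0 in set 1 of both groups. Its levels were 0, 28.4 and 49.3 TPM in morphants, against 0, 24.9 and 21.5 TPM in controls. The unnamed *LOC105947663* had 0, 18.4 and 26.1 TPM in morphants, against 0, 19.4 and 21.7 TPM in controls.

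The same was true of *fam183a*, with 0, 12.04 and 12.28 TPM in morphants and 0.0864, 11.3 and 13.7 TPM in controls. Another unnamed gene, *LOC108648059*, had the second largest control SD (4.02). Its levels were 125, 1.07 and 0 TPM in morphants, against 86.8, 0.206 and 0.193 TPM in controls, so it too was high in set 1 only. In all, a control value was under 1 TPM 27 times, in 25 members, and the morphant of the same number was also under 1 TPM in 15 of these 27 cases.

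Set 2 was the odd one, and low, for a pair of near neighbours on chromosome 6. The unnamed *LOC100487485* had 17.6, 0.499 and 18.3 TPM in morphants, against 12.43, 0 and 9.08 TPM in controls. Its neighbour *LOC101735164* had 45.7, 5.43 and 43.4 TPM in morphants, against 38.97, 1.74 and 38.1 TPM in controls. *LOC101734862*, a member in the same stretch, was instead lowest in set 3 of both groups. Another unnamed gene with a low control 2, *LOC100487763*, had 28.3, 12.96 and 53.8 TPM in morphants, against 31.8, 0.387 and 40.9 TPM in controls. It was lowest in set 2 of both groups, with a far shallower dip in the morphant (slope 0.30).

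Where control 3 was high, the largest spreads of protein-coding members were those of *cinp*, a cyclin-dependent kinase partner, *rfk*, riboflavin kinase, and *ribc2*, a protein of ciliary microtubules. The first had 1.97, 1.91 and 5.36 TPM in morphants, against 2.12, 3.68 and 15.3 TPM in controls. For *rfk* the levels were 2.46, 2.29 and 7.60 TPM in morphants and 2.30, 4.54 and 14.6 TPM in controls. For *ribc2* they were 1.59, 1.53 and 3.95 TPM in morphants and 1.79, 3.15 and 11.01 TPM in controls. In all 3 genes set 3 was highest in both groups and morphant 3 was well below control 3.

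Some members near 0 in 1 set were entries of a gene that the table lists more than once. This was looked for after the values were seen. RefSeq gave another entry of the same gene for 9 members (4.5%), against 1.15% of the other genes, and for 8 of these 9 the other entry reached 1 TPM. Summing the entries lowered the control SD of all 8 below that of the 200th member. How reads were divided between such entries is uncertain, and its part in the pattern was not tested.

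The clearest case was *eloc*, elongin C, a subunit of a ubiquitin ligase and of a transcription elongation factor. The entry *eloc* had 31.7, 3.63 and 0.842 TPM in morphants 1, 2 and 3, against 65.2, 3.78 and 0.365 TPM in controls 1, 2 and 3. The entry *tceb1*, its older name, had 221, 275 and 267 TPM in morphants, against 239, 311 and 308 TPM in controls. The control SD fell to 0.026 for the sum, against 3.16 for *eloc* alone.

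For *kiaa0907*, an RNA-binding splicing factor now called *khdc4*, the entry made up 11.4, 49.5 and 1.77% of the sum in morphants 1, 2 and 3, against 14.2, 52.7 and 1.84% in controls. The entry *washc1*, a subunit of a complex that nucleates actin on endosomes, was 77.3, 51.2 and 8.03% of the sum with *wash1* in morphants, against 70.3, 50.7 and 10.1% in controls. In both, the share of the 2 entries differed several-fold between sets and by little between morphant and control of a set.

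For *sgo1* (shugoshin, which protects centromeric cohesion) and *tbxt* (brachyury, the mesodermal T-box factor) the sum still differed between sets. The control SD of *tbxt* was 1.09 alone and 0.53 with the entry *t*, and that of *sgo1* was 1.77 alone and 0.55 with *sgol1*. The sum for *tbxt* was 44.6, 72.9 and 73.4 TPM in morphants 1, 2 and 3, against 34.4, 56.6 and 71.3 TPM in controls 1, 2 and 3, so set 1 was lowest in both groups.

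**Figure D3:**
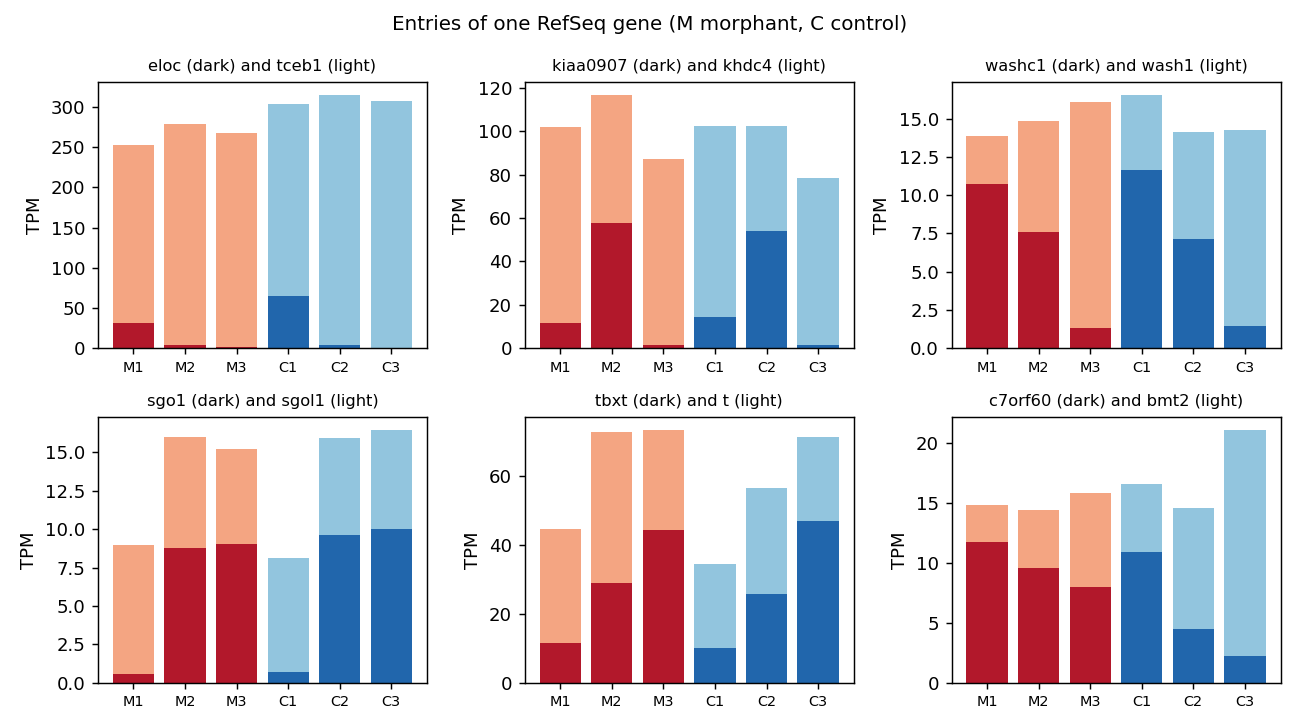
TPM of 6 members (dark) and of the other entry of the same RefSeq gene (light), stacked, in morphants 1 to 3 (M, red) and controls 1 to 3 (C, blue). The dark part differs between sets and is alike in M and C of one number for *kiaa0907*, *washc1*, *sgo1* and *tbxt*, while for *c7orf60* it is 7.998 TPM in morphant 3 and 2.22 TPM in control 3.

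The members with low slopes included a block of neighbouring genes on chromosome 8. In RefSeq, 10 genes that the table lists lie between *atp7a* and *zbtb33*, and 9 of them were members. They are related to *acod1*, whose enzyme makes the antimicrobial metabolite itaconate in activated mammalian macrophages, to phytanoyl-CoA dioxygenases (the phyhdl genes) and to *gatd3*, with *satpa* among them. Their summed level was 448, 867 and 1493 TPM in morphants 1, 2 and 3, against 31.7, 2458 and 948 TPM in controls 1, 2 and 3. Control 1 was far below all other samples and control 2 above them. Morphant 1 was also the lowest morphant for all 9, so set 1 was lowest in both groups, by far less in morphants.

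Within set 1 all 9 were higher in the morphant, by a median of 3.48 on the log2 scale. Within set 2 none was higher, with a median difference of -1.55, and within set 3 it was 6 of 9, with a median of 0.43. Their slopes were between 0.08 and 0.47. The gene with the largest control SD of all members, *LOC101734170* (*phyhdla.1*; SD 4.08), had 4.36, 43.2 and 56.9 TPM in morphants, against 0.221, 129 and 65.9 TPM in controls. For *irg1* (*acod1lb* in RefSeq) the levels were 55.2, 78.4 and 139 TPM in morphants, against 1.03, 183 and 60.5 TPM in controls.

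The most abundant gene of the block was *LOC100490235* (*phyhdla.3*), with 159, 348 and 551 TPM in morphants and 13.8, 1023 and 277 TPM in controls. The second, *LOC100490748* (*phyhdla.2*), had 86.3, 209 and 348 TPM in morphants and 7.65, 713 and 257 TPM in controls. The low control 1 and high control 2 recur in both, and the 3 morphants stand in the order 1, 2, 3. The other named entries of the first 15 in this block, *LOC100490060* (*acod1la*) and *LOC100490918* (*phyhdlb*), had control SDs of 3.57 and 3.16.

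The entry *acod1* itself, which RefSeq places on chromosome 2 but also lists as a synonym of a gene in the block, had 26.2, 34.7 and 84.4 TPM in morphants, against 0.579, 96.9 and 36.1 TPM in controls. A second group of 3 neighbours on chromosome 8, *LOC108648340*, *LOC100497952* and *LOC100498107*, summed to 127, 181 and 284 TPM in morphants and 11.1, 381 and 145 TPM in controls. Several of these genes bear names of numbered copies, and how reads were divided between copies is uncertain. None of these 13 genes was called in the comparison of morphants with controls given further on. Of all members, 18 were over 1 log2 unit above control in set 1 and below control in set 2. These 18 include the 13 genes and *LOC101734069*, *LOC105948134* and *LOC108648341*, which had no RefSeq match, so their places are not known here. *LOC101734069* had 395, 868 and 1066 TPM in morphants, against 55.0, 2320 and 380 TPM in controls (slope 0.21). The other 188 members, without the 12 genes of both blocks but with these unmatched genes, had a median slope of 0.79.

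**Figure D4:**
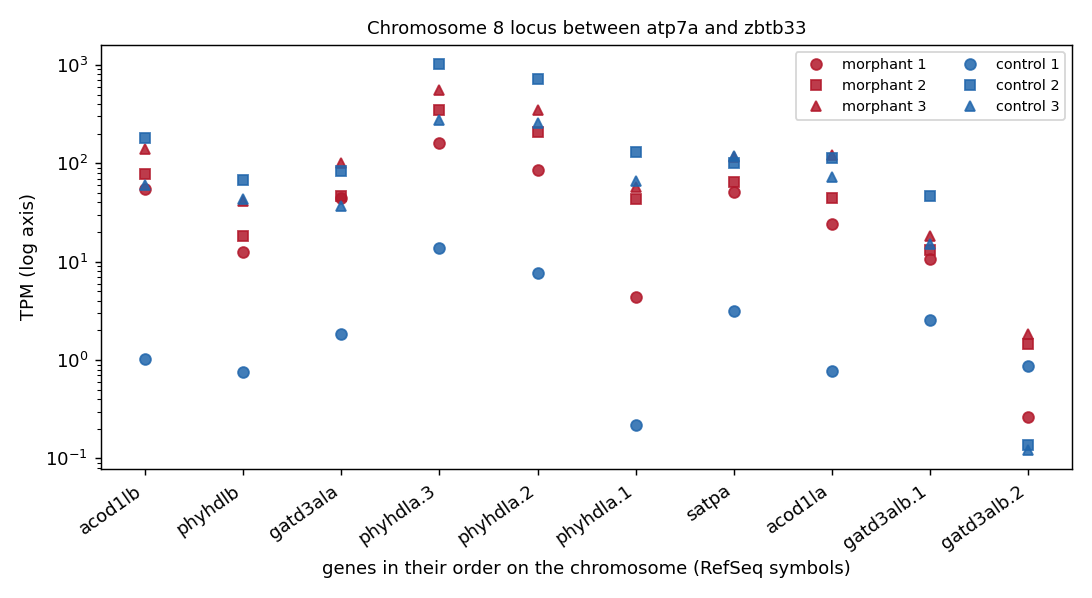
TPM on a log axis of the 10 listed genes between *atp7a* and *zbtb33* in their chromosome order, with morphants in red, controls in blue and the set given by the marker shape. Control 1 (blue circles) lies lowest for the 9 members, while morphant 1 (red circles) lies far above it, nearer to the other samples, and the last gene, *gatd3alb.2*, is not a member.

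A further 5 entries were microRNA genes, against 2 among the other genes. The entry *mir205a* followed its set, with 32.9, 11.5 and 18.01 TPM in morphants 1, 2 and 3, against 29.2, 6.97 and 10.54 TPM in controls 1, 2 and 3, and *mir34a* kept the order of the sets with a slope of 0.23. The other 3 differed in which set was highest. The entry *mir219* had 6.57, 5.73 and 10.0 TPM in morphants, against 23.2, 34.5 and 0 TPM in controls. The entry *mir133a*, of a muscle microRNA, had 32.9, 0 and 0 TPM in morphants and 4.17, 3.48 and 15.8 TPM in controls, with the lowest slope of all members (-1.28). In morphant 1 the 4 microRNA values above 0 were 1, 9, 5 and 5 times 6.57 TPM, and in morphant 2 they were 1, 4, 2 and 4 times 5.73 TPM, each within 0.01 of a whole number. In the other 4 samples not all values were whole multiples of the smallest one. The smallest value need not be a single step, and entries can differ in step. This check therefore cannot say whether the values of those samples also lie on steps. Values of so few steps leave the order of the sets uncertain for all 5 entries.

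Among members with a RefSeq match, the lowest slopes after *mir133a* belonged to *LOC108646286* (-0.41), *mir219* (-0.11) and the platelet-activating factor receptor gene *ptafr* (0.06). The first of these had 27.7, 0 and 42.7 TPM in morphants and 59.6, 24.4 and 0 TPM in controls, so that a different set was listed at 0 in each group. The receptor had 14.6, 17.9 and 23.2 TPM in morphants and 8.15, 39.2 and 12.9 TPM in controls. The highest slope of a named member was 1.44 for *cd36*, a fatty acid and scavenger receptor, with 0.9, 18.4 and 19.9 TPM in morphants and 1.83, 16.1 and 8.88 TPM in controls. Set 1 was the lowest in both groups for *cd36*.

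The functions of 62 of the 87 named members were grouped after their values were seen, into 10 groups, which get no test. For comparison, 58.6% of the 87 named members were highest in control 3. Over all 200 members, 74% had the same highest set in both groups and 64.5% the same order. Over all 9170 genes it was 71.8 and 53.2%. The orders 1, 2, 3 and 1, 3, 2, with control 1 lowest, held 34 and 22.5% of the members, against 33.0 and 10.2% of all genes. The 5 immune genes (*irg1*, *acod1*, *ptafr*, *traf6* and *skap1*) had slopes between 0.06 and 0.58, and 1 of them, *traf6*, kept the order of the sets. Of these, *irg1* lies in the chromosome 8 block and *acod1* is also a synonym of a gene there. Their low slopes thus repeat what was given above. The order was kept by 8 of 10 nuclear entries, 4 of 4 actin entries, 2 of 4 cilium entries and 2 of 3 chaperone and secretion genes. The cilium entries *cfap97d1* and *c17orf105* belong to the same gene. Summed with their other entry, as above, these fell below the control SD of the 200th member. So did *eloc*, *kiaa0907* and *sgo1* of the nuclear group, *washc1* of the actin group and *tbxt* of the developmental regulators. Of 10 developmental regulators, all were highest in control 3 and 9 were lowest in control 1, and 8 had the same highest set in morphants. The orphan nuclear receptor gene *nr4a1*, an immediate early gene, had 2.76, 8.72 and 20.5 TPM in morphants 1, 2 and 3, against 1.79, 12.32 and 26.4 TPM in controls. The endodermal factor *sox17b.1* had 26.6, 63.9 and 54.2 TPM in morphants, against 16.6, 53.8 and 58.9 TPM in controls. Both were lowest in set 1 in each group.

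The RNA-binding *lin28a*, a regulator of developmental timing, had 10.1, 7.79 and 21.4 TPM in morphants, against 9.42, 16.3 and 45.7 TPM in controls. The growth factor gene *fgf2* had 3.25, 4.72 and 7.88 TPM in morphants, against 3.51, 6.54 and 13.8 TPM in controls. For both genes set 3 was highest in each group, and the difference between sets was smaller in morphants, with slopes of 0.54 and 0.63. The Wnt antagonist gene *frzb* had a slope of 0.59, and *cebpa*, a myeloid and fat cell transcription factor, had one of 0.68.

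The median slope of the 41 members with a high control 3 was 0.64. It was 0.74 to 0.82 in the members placed otherwise by their odd control sample, and 0.69 for the other genes. Of the 41, 35 were highest, and odd, in morphant 3 as well. In set 3, 35 of the 41 were lower in the morphant, with a median difference of -0.79 on the log2 scale, against -0.43 in set 2 and -0.08 in set 1. Since control 3 chose these genes, a lower value beside it is part of the choice. Of the 48 members with a low control 3, 31 were higher in morphant 3.

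Of 6 genes of lipid handling, 5 had the same order of sets in both groups, beside 64.5% of all members, and *cd36* did not. Their slopes were between 0.74 and 1.44. The epidermal lipoxygenase gene *alox12b* had 3.75, 10.7 and 3.43 TPM in morphants, against 3.64, 10.7 and 3.40 TPM in controls. The peroxisomal enzyme gene *hsd17b4* had 3.58, 4.61 and 11.8 TPM in morphants, against 3.38, 4.63 and 11.7 TPM in controls. Set 2 stood out for the first and set 3 for the second, at nearly equal levels in both groups.

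Of 8 other metabolic genes, 7 had the same highest set in both groups, beside 74% of all members. Lactate dehydrogenase (*ldha*) had 79.2, 93.6 and 30.1 TPM in morphants, against 131, 110 and 33.8 TPM in controls, and was the exception, though lowest in set 3 in each. The glutathione transferase gene *gstp1* had 4.84, 20.6 and 5.59 TPM in morphants, against 6.36, 25.1 and 3.69 TPM in controls. It was highest in set 2 in both groups.

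All 6 transport genes had the same highest set in both groups, beside 74% of all members, and all 6 were lowest in control 1. The epithelial sodium channel subunit gene *scnn1a* had 11.8, 42.0 and 11.9 TPM in morphants, against 11.6, 59.997 and 15.3 TPM in controls. All 6 genes of proteases, matrix and adhesion were highest in control 3, beside 58.6% of the named members. The serine proteases *prss29* and *xepsin* did not follow there, with 1.85, 13.8 and 4.37 TPM for *prss29* in morphants, against 2.00, 21.8 and 36.0 TPM in controls. Both proteases were highest in morphant 2 and in control 3.

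Further members came from lists of genes set by function, which were chosen with earlier results of these data known. Of 800 expressed genes on 30 lists, 15 were members, and 14 lists held 1 or 2. They were *acod1* and *cebpa* among innate immune genes, *hsph1* among chaperones, *pgat* of the germ plasm, *lin28a* and *tbxt* among pluripotency genes, *dsg2* in the epidermis list and *h2afj* among histones. The others were *nr4a1*, *gstp1*, *ldha*, *sox17b.1*, *frzb*, *scnn1a* and *fgf2*. The chaperone gene *hsph1* had 7.12, 9.77 and 21.5 TPM in morphants, against 7.97, 13.2 and 33.5 TPM in controls, and the desmosomal cadherin gene *dsg2* had 10.28, 24.3 and 28.2 TPM in morphants, against 11.9, 27.5 and 42.4 TPM in controls. Both were highest in set 3 in each group. The germ plasm gene *pgat* had 3.84, 3.67 and 4.41 TPM in morphants, against 2.76, 4.55 and 10.3 TPM in controls (slope 0.12), so only control 3 stood out. No member came from the lists of neuronal (0 of 22), neural plate (0 of 45), muscle (0 of 43), multiciliated cell (0 of 66) or cell cycle genes (0 of 62). Other lists also held none. With 2.18% of all expressed genes being members, lists of these sizes can easily hold none, so nothing is read from it. The 15 members on lists all had gene names, while 113 members had none. The 2.18% is therefore not a like share for the lists. The multiciliated list had a median control SD of 0.36, against 0.22 for all expressed genes. The ciliary *ribc2* and the centromeric *sgo1* were members but on no list.

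Morphants were set against controls with limma, with the set as a block, over 13382 genes. Of the members, 14 (7%) were higher in morphants, against 2.62% of all genes tested, and 14 (7%) were lower, against 5.87%, at a Benjamini-Hochberg adjusted p of at most 0.05. Among the 9170 genes from which members were drawn, 3.02% were higher and 6.72% lower. In either direction it was 14% of the members and 8.49% of all genes tested. Each of the 28 moved in the same direction in all 3 sets, as did all 1136 genes called. In none of the 28 did the 3 morphants lie wholly above or below the 3 controls, while this held for 56.8% of all called genes and 15% of all genes tested. A wide spread between controls, by which the members were chosen, makes such overlap likely. The control values enter both the rule and this test, so the calls of members are not independent of the choice. Of the 41 members with a high control 3, 3 were called higher and 6 lower. Without the block, limma called 0 members, and 1 gene of the 13382 (0.00747%), and 3 members and 8.4% of all genes had an unadjusted p under 0.05. The smallest adjusted p of the 28 was then 0.521, for *LOC105948480*. At an unadjusted p under 0.05 the blocked test held 76 members (38%), against 33.1% of all genes. With the block but no filter on low TPM, limma also called 0 members. The call of 3 of the 28 was lost without set 1, of 17 without set 2 and of 21 without set 3. Leaving out set 1 gave 29 members higher and 30 lower, leaving out set 2 gave 8 and 8, and leaving out set 3 gave 7 and 3. Nothing says that the samples of a group came from separate matings. The blocked p-values therefore measure only how alike the difference between morphant and control was over these 3 sets.

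The members higher in morphants were mostly unnamed (11 of 14), as were 56.5% of all members. Of the 113 unnamed members 11 were called higher, and of the 87 named members 3 were. Of the named ones, the protease inhibitor gene *serpine2* had 18.3, 14.97 and 55.3 TPM in morphants 1, 2 and 3, against 13.8, 10.97 and 41.3 TPM in controls 1, 2 and 3. The morphant was higher in each set by about the same ratio, with a log2 fold change of 0.42 ± 0.064 (SE, n = 3 sets; limma adjusted p = 0.0291). The calls of *serpine2*, *gyg1* and *brd3* were each lost without set 2 and without set 3, with limma adjusted p between 0.0577 and 0.11. Glycogenin (*gyg1*), the primer of glycogen synthesis, had 63.8, 80.4 and 170 TPM in morphants, against 29.96, 57.5 and 117 TPM in controls (0.70 ± 0.124; limma adjusted p = 0.0352). The chromatin reader gene *brd3* had 118, 106 and 51.7 TPM in morphants, against 97.3, 74.7 and 30.4 TPM in controls (0.51 ± 0.0983, limma adjusted p = 0.0406). Control 3 was its odd sample, and low, so a higher morphant 3 is part of the choice for *brd3*.

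The smallest p among the members that were higher belonged to *LOC100498072*, with a log2 fold change of 1.13 ± 0.0879 (limma adjusted p = 0.0133). It was followed by *LOC101730673* (0.74 ± 0.0718; limma adjusted p = 0.0159). On chromosome 8, *LOC101730673* lies between another member, *LOC100498266*, and *mdga2*. The levels of *LOC101730673* were 8.55, 40.9 and 23.7 TPM in morphants, against 5.15, 24.6 and 13.3 TPM in controls, highest in set 2 in both.

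Among the members that were lower, the smallest p belonged to the unnamed *LOC101734345* (-0.90 ± 0.0623; limma adjusted p = 0.0133). The gene *mab21l2*, a regulator of eye development, had 6.57, 2.22 and 5.87 TPM in morphants, against 14.0, 4.62 and 20.9 TPM in controls (log2 fold change -1.23 ± 0.172; limma adjusted p = 0.0267). Both entries of one cilium-associated gene were called. They are *cfap97d1* (-0.96 ± 0.149; limma adjusted p = 0.0291) and *c17orf105* (-1.08 ± 0.124; limma adjusted p = 0.0199), and their sum was 11.4, 8.17 and 9.06 TPM in morphants, against 26.3, 13.8 and 22.9 TPM in controls. Without set 3 the limma adjusted p was 0.0839 for *cfap97d1* and 0.0514 for *c17orf105*. The summed values did not overlap between the groups, while those of the separate entries did.

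The mitochondrial quality control gene *spata18* had 11.6, 10.6 and 21.6 TPM in morphants, against 16.6, 17.6 and 49.0 TPM in controls (-0.79 ± 0.133; limma adjusted p = 0.0325). The cell surface proteoglycan gene *sdc4* had 16.7, 18.4 and 39.9 TPM in morphants, against 20.7, 30.2 and 74.5 TPM in controls (-0.63 ± 0.119; limma adjusted p = 0.0392). The collagen lysyl hydroxylase gene *plod1* had 8.999, 9.76 and 23.3 TPM in morphants, against 10.9, 17.9 and 40.7 TPM in controls (-0.63 ± 0.128; limma adjusted p = 0.0434). In these genes set 3 was highest in both groups and the morphant was below its control in every set. All 3 were placed by a high control 3, so a lower morphant 3 is part of the choice. These calls are therefore not independent of the rule. The calls of all 3 were lost without set 2 and without set 3, with limma adjusted p between 0.068 and 0.144.

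**Figure D5:**
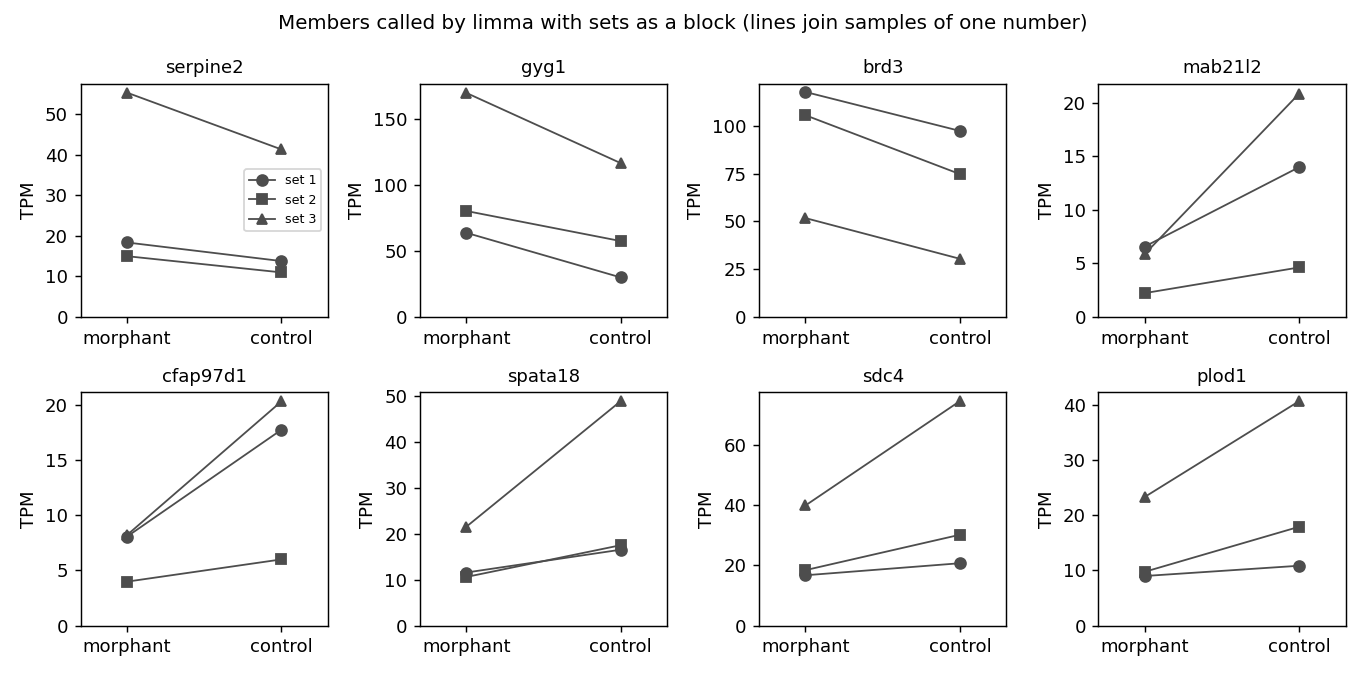
TPM of 8 members that limma called with the set as a block, in morphants (left of each panel) and controls (right), with lines that join the samples of one number. The lines of a panel run the same way while the ranges of the groups overlap, as for *gyg1*, where morphants lie between 63.8 and 170 TPM and controls between 29.96 and 117 TPM.

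Over the members as a whole the median log2 fold change was 0.04, and 106 were above 0 and 94 below, against a median of -0.07 over all genes tested. Their median standard error was 0.155 in the blocked fit, against 0.080 for the others.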

How the data were processed

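The authors trimmed Illumina reads with cutadapt, quantified them with Salmon on the *X. tropicalis* reference transcriptome (version 9.1) and deposited gene-level TPM for 6 samples, beside their own group means, which were not used. All columns have an equal TPM total, which keeps no depth. Sleuth, which the study used, was not run. No per-sample column was left unused (0). The table's gene names were matched to RefSeq (UCB_Xtro_10.0) by symbol, gene ID or synonym, and no coordinates are given because the builds differ. No sequences were used here.

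The members and gene lists were chosen with earlier results of these data known. Members had a control mean of at least 5 TPM and the 200 largest SDs of log2(TPM + 0.5). Genes named are the 15 with the largest SD, the leading members of each class, of the test in each direction and of the slopes, those in a gene list, and ranks 196 to 205; others were chosen after their values were seen.

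Morphants and controls were compared with limma 3.58.1 (R 4.3.3; eBayes with a trend) on log2(TPM + 0.5), for the 13382 genes that averaged 1 TPM or more in a group, with sample number blocked and p-values adjusted by Benjamini-Hochberg over these genes. The pairing comes from the labels' numbers 1 to 3 and the study's mention of sibling embryos. Over the members, deviations from the group means of same-numbered samples correlated at 0.79, 0.58 and 0.76 in sets 1, 2 and 3. These values include the control values by which the members were chosen. Over the other 8970 genes the correlations were 0.75, 0.69 and 0.80. The fit has 2 residual degrees of freedom, and 4 without the block. The selection and the test were checked on simulated data. Alternatives were other pseudocounts, filters, scalings, numbers of members and each set left out. Summing entries of one gene and leaving out the chromosome 8 genes were chosen after seeing the data. Python 3.11.15 with pandas 2.3.3 and numpy 2.4.6 was used for the rest.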

Additional observations from a re-analysis of the deposited data

How the results depend on the processing

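Of the 200 members, 83 were still chosen with a control mean of at least 1 TPM, 126 with at least 10 TPM, and 100 where only 100 were taken; leaving out each set in turn kept between 103 and 148. The share of members highest in the same set lay between 60 and 78.2% under the other alternatives (74% as reported). Over all genes it was 69.5 to 72.7%. The 60% came where only the 100 most variable genes were taken, below the 71.8% of all genes. With 1 set left out, where 2 sets remain, the share of members was 89.5 to 97.5%, against 76.0 to 83.9% of all genes. The median slope lay between 0.71 and 0.80 and the share among the largest morphant SDs between 51.5 and 63%.

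The limma calls depended more on the setting. Against 14 members higher and 14 lower, no replicate block gave 0 and 0. No filter on low TPM, which adds genes to the adjustment and the variance trend, also gave 0 and 0. No mean-variance trend gave 4 and 7, and quantile normalization gave 8 lower. Leaving out a set gave 7 to 29 higher and 3 to 30 lower, the most without set 1. Of 16 called members, the 8 with the smallest p in each direction, none reversed under these alternatives. This says little, since leaving out the block, the filter or the trend does not change the fold change. Leaving out a set cannot reverse it either, as each called member moved in the same direction in every set. The call was lost in 16 without the block and in 16 without the filter. It was lost in 7 without the trend, 2 with a pseudocount of 0.1, 6 without set 2 and 10 without set 3. Scaling moved the median of all tested genes to 0.02 (median scaling) and -0.002 (quantile), against -0.07. TPM gives no depth, so the counting error of low and short entries is unknown.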
